A study of Rattus norvegicus with 2 samples.

Results

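The 7 genes Irf1, Irf7, Irf8, Irf9, Gbp2, Gbp5 and Stat2 were followed through every cell class of the rat lung, in control animals and after a gas explosion. They are interferon regulatory factors, their partner Stat2, and guanylate-binding proteins. They were found by symbol, all 7 among the 42172 genes counted. They were selected on measured values, their levels and explosion over control ratios in these same libraries, so every difference between the libraries is given as a description. The study holds 2 libraries of dissociated lung cells, 1 of rats that underwent a gas explosion and 1 of rats that did not (control), all kept specific-pathogen-free. The labels give no strain, age, sex, time after the blast or number of animals per library. The lungs were minced, digested with enzymes and depleted of red and dead cells, and the cells went through droplet 3' RNA sequencing. With 1 library per group there is no replicate check and no test between groups. Values are unique molecular identifiers (UMIs, counted RNA molecules) summed over the cells of a class, scaled by all UMIs of that class and library (CPM), and the ranges in parentheses are exact 95% intervals that cover counting error only.

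Interferons bind receptors on the cell surface, and the kinases JAK1, JAK2 and TYK2 then phosphorylate STAT proteins. Type I interferon drives a complex that holds STAT2 and IRF9 to interferon-stimulated response elements (ISRE), whereas interferon gamma acts through gamma-activated sequences (GAS). IRF1 is an early target of interferon gamma that goes on to switch on antigen presentation and antiviral genes. IRF7 amplifies the production of type I interferon and is kept at a high level in plasmacytoid dendritic cells. IRF8 directs the development of monocytes, dendritic cells and B cells. GBP2 and GBP5 are interferon-inducible GTPases that coat intracellular pathogens and their vacuoles, and GBP5 also promotes inflammasome assembly. In the lung these genes mark the response of resident macrophages and recruited monocytes to infection and injury.

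The start-site sequences of the members show which carry the core letters of these elements. The 250 bases before the annotated start were taken from RefSeq (assembly GRCr8), and all 7 genes matched an entry. The ISRE core searched was a pair of GAAA blocks with any 2 bases between them, and the GAS core was TTCNNNGAA, where N is any base. Both strands were searched, and no match of one overlapped a match of the other. Of 33469 such windows of rat genes, 3.41% held the ISRE core and 7.67% the GAS core. The 5 windows below are those of the genes with the largest levels or differences in the cell classes, printed 5′ to 3′ on the gene's own strand, with the matching bases in capitals. Irf1 lies at chr10:38417685-38417934 on the plus strand, Irf7 at chr1:205800024-205800273 on the minus strand, Irf8 at chr19:65699034-65699283 on the plus strand, Gbp2 at chr2:234005477-234005726 on the plus strand and Gbp5 at chr2:233910749-233910998 on the plus strand.
Irf1: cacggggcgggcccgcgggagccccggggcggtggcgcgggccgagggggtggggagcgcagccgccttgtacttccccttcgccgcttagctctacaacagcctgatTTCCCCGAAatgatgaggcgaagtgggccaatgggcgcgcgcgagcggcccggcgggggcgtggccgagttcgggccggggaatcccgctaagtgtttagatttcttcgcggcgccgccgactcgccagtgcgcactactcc
Irf7: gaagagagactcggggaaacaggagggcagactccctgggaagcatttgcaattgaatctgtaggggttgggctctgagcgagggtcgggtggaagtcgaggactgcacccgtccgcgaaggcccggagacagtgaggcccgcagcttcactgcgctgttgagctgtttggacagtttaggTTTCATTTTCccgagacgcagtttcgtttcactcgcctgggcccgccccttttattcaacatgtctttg
Irf8: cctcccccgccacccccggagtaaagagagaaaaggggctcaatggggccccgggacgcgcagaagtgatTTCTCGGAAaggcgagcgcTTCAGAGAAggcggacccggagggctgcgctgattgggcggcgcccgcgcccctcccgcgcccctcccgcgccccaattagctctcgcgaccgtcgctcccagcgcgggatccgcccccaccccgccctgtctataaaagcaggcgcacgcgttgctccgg
Gbp2: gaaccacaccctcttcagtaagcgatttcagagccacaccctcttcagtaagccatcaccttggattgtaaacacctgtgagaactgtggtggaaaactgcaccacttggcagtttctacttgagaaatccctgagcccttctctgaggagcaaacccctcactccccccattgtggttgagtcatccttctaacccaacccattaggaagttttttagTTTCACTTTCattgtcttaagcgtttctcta
Gbp5: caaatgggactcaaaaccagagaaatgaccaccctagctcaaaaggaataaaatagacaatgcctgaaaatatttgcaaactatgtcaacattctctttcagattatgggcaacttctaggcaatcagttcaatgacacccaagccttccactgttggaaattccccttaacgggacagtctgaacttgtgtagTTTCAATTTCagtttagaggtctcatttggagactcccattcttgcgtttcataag
The ISRE core stood in Irf7 (first base 69 bases before the start), Gbp2 (31 before) and Gbp5 (56 before), where the matching bases were TTTCATTTTC, TTTCACTTTC and TTTCAATTTC. The GAS core stood once in Irf1 (142 before), at 2 places in Irf8 (180 and 161 before) and once in Irf9, as TTCTAGGAA 99 bases before the start. Neither core was in the Stat2 window, which says only that those letters are absent from these 250 bases. For Irf7, Irf9 and Stat2 the start used was not the outermost start of the gene. A match of letters is a description and not a binding site.

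The depths of the libraries differed widely. The control library held 21117 barcodes and 139486248 UMIs and the explosion library 12642 barcodes and 9017416 UMIs. Filters and doublet removal left 19298 control cells (median 4687 UMIs) and 11811 explosion cells (median 532 UMIs), and 47.1% of the kept explosion cells had fewer than 500 UMIs against 0 in the control. Before any filter the lowest barcode already had 500 UMIs in the control and 231 in the explosion library, so that 0 reflects a different floor. The libraries shared 85 barcodes, 0.403% of the control and 0.672% of the explosion barcodes. Scgb1a1, the secretory cell protein, made up 24.1% of control and 5.94% of explosion UMIs. Clustering gave 33 clusters, of which 29 were named in 15 classes from marker genes, and the suffix "-like" marks such a name. Comparisons took in the 11 classes that had 50 or more cells in each library, which gave 77 pairs of a gene and a class. Of these, 59 had at least 20 UMIs over both libraries, and a pair was called when the CPM ratio was at least 2 in either direction with an interval that excluded 1.

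The explosion library stood higher than the control in 58 of the 59 pairs, and the exception was Stat2 in ciliated-like cells with a ratio of 0.88. Of the 59 pairs, 26 were called higher and 0 lower. Over all genes the share called lower was 9.31% in monocyte-like, 6.09% in macrophage-like, 6.63% in T-like, 8.33% in B-like, 7.29% in NK-like, 15.5% in endothelial-like, 13.2% in fibroblast-like, 11.3% in mesothelial-like, 13.4% in type 2 alveolar-like, 4.91% in ciliated-like and 0.951% in secretory-like cells. Most genes moved the same way in this scaling: the median gene of a class lay between 0.26 (fibroblast-like) and 1.58 (secretory-like) above the control on the log2 scale. That median was taken over part of the tested genes, 801 of 12828 in secretory-like and 1112 of 4754 in endothelial-like cells. Over every tested gene the median ran from 0.17 (endothelial-like) to 1.12 (secretory-like). Relative to the median gene of their own class, 47 of the pairs stood higher and 12 lower, and with TMM factors 43 stood higher and 16 lower. Monocyte-like cells had 5 of 7 genes called higher, where 25.2% of all genes tested in that class were, and all 7 stayed above the control under both of those scalings. Macrophage-like and T-like cells had 4 of 7 each, against 32.1% and 32.7% of all genes. In endothelial-like cells 4 of 4 measured genes were called, against 19.6%. Of these, Irf8 (6 and 14 UMIs) only just reached the minimum, mainly through the explosion library. Irf7 (13 and 5 UMIs), Irf9 (9 and 9) and Stat2 (14 and 4) fell short there, so nothing is read from that count. Ciliated-like cells had 4 of 6 called, against 34.4%. Fibroblast-like cells had 2 of 3, against 25.1%, but the 2, Irf8 (4 and 18 UMIs) and Gbp2 (7 and 18), reached 20 UMIs mainly through the explosion library, while Irf7 (10 and 9) and Irf9 (9 and 10) fell short, so nothing is read from that count. B-like cells had 1 of 7, against 24.3%, NK-like cells 1 of 5, against 20.6%, and secretory-like cells 1 of 6, against 28.8%. Mesothelial-like cells had 0 of 7, against 27.5%, and in type 2 alveolar-like cells, where 29.8% of all genes were called higher, no member reached 20 UMIs. Gene by gene, Gbp2 was called higher in 7 of 10 classes, Gbp5 in 5 of 7, Irf1 and Irf8 in 5 of 10 each, Irf9 and Stat2 in 2 of 7 each and Irf7 in 0 of 8. Between 19.6% and 34.4% of all genes were called higher in these classes. Some of these calls had fewer than 20 control UMIs and reached the minimum only with those of the explosion library. They were Gbp2 in B-like and fibroblast-like, Irf8 in endothelial-like and fibroblast-like and Irf1 in endothelial-like cells.

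**Figure D1:**
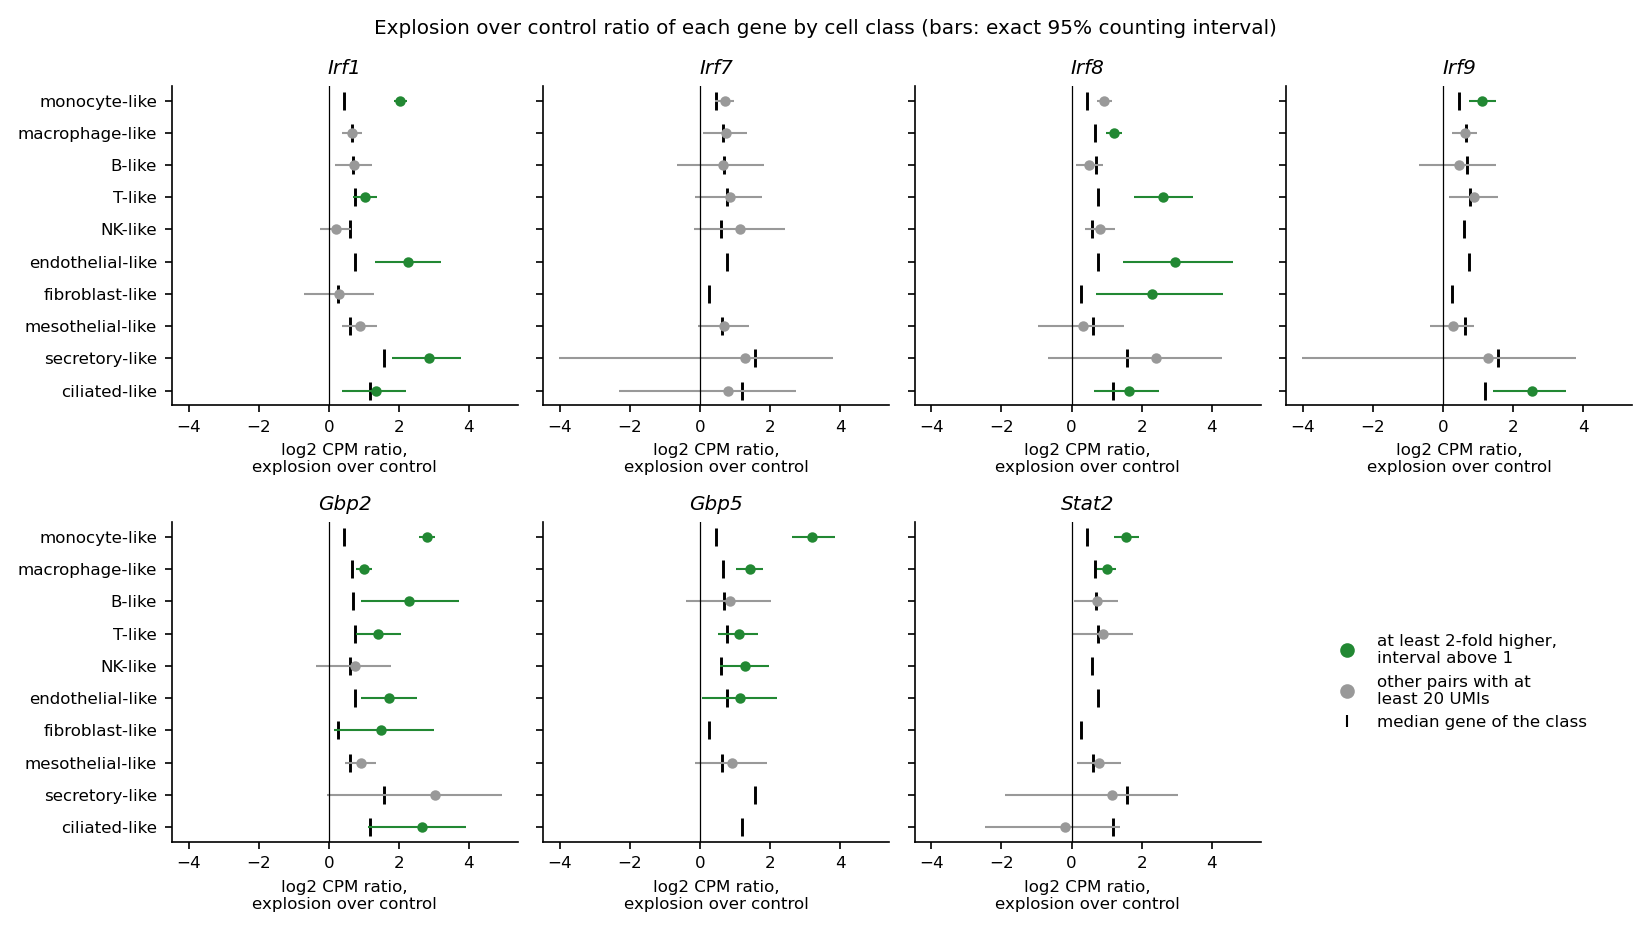
Ratio of explosion over control CPM on the log2 scale for each gene and compared class, with exact 95% counting intervals; green points met the rule for higher, and black ticks give the median gene of the class. The points of Gbp2, Gbp5, Irf1 and Stat2 in monocyte-like cells lie well to the right of the tick, whereas most grey points lie near it.

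Irf1, the early transcription factor of the interferon gamma response, had its highest level in different cells of each library. In the control it was highest in NK-like cells, with 241 CPM (206 to 281), and followed by monocyte-like cells, with 128 CPM (114 to 143). In the explosion library it was highest in monocyte-like cells, with 528 CPM (494 to 563), and NK-like cells followed with 278 CPM (213 to 357). Monocyte-like cells thus passed NK-like cells, whose own ratio was only 1.15 (0.845 to 1.56). The Irf1 ratio in monocyte-like cells was 4.12 (3.63 to 4.70), and 4.96% of the genes tested there had a higher one. Endothelial-like cells went from 47.9 to 229 CPM, a ratio of 4.77 (2.52 to 9.24) that rests on 18 control and 26 explosion UMIs. T-like cells went from 86.8 to 178 CPM, a ratio of 2.06 (1.63 to 2.59), which was 0.28 above the median T-like gene on the log2 scale. Secretory-like and ciliated-like cells were at the bottom of the control order, with 9.32 and 15 CPM. Their explosion levels of 67.9 and 38.6 CPM came from 10 and 12 UMIs. Macrophage-like cells held 31.0 and 49.3 CPM, a ratio of 1.59 (1.30 to 1.93) that was level with their median gene and fell below 1 with TMM factors. Neighbouring classes in the control order mostly could not be separated: 11 of the 13 neighbouring pairs had overlapping intervals.

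Beside 5 of 7 classes for Gbp5, Gbp2 was called higher in 7 of 10, the most of the 7 genes. In the control it was highest in neutrophil-like cells, with 95.9 CPM (68.2 to 131), a level whose interval overlapped those of endothelial-like cells at 77.2 CPM and monocyte-like cells at 70.0 CPM. In the explosion library monocyte-like cells had 488 CPM (455 to 522), and endothelial-like cells followed with 255 CPM (171 to 366). The order was therefore led by monocyte-like cells, with no overlap of intervals. The Gbp2 ratio was 6.96 (5.91 to 8.25) in monocyte-like cells, where 1.85% of genes had a higher one, and 3.30 (1.91 to 5.73) in endothelial-like cells. It was 6.31 (2.18 to 15.1) in ciliated-like cells, from 36 and 6 UMIs, and 4.85 (1.88 to 13) in B-like cells, from 9 and 12 UMIs. T-like, fibroblast-like and macrophage-like cells had ratios of 2.67, 2.81 and 2.02. Mesothelial-like cells, of the pleural lining, went from 42.9 to 80.9 CPM, and their ratio of 1.89 (1.38 to 2.55) missed the rule. Plasmacytoid dendritic-like cells were at the low end in both libraries, with 0 UMIs among 45 control cells, which allows a share of up to 6.67% of cells with a UMI, and 5 UMIs among 219 explosion cells.

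Gbp5, the GTPase tied to the inflammasome, was highest in NK-like cells of both libraries, with 61.8 CPM (44.5 to 83.5) in the control and 150 CPM (104 to 211) in the explosion library. Endothelial-like cells stood next to them, with 55.9 and 123 CPM, and their intervals overlapped those of NK-like cells. Both classes met the rule for higher, with ratios of 2.44 (1.5 to 3.94) and 2.2 (1.04 to 4.54). The 15 T markers summed to 45.3 and 308 CPM in endothelial-like cells (17 and 35 UMIs). Only 7 of them had a UMI in the control and 11 in the explosion library. In NK-like cells the 14 dendritic markers summed to 141 and 483 CPM, and 6 and 5 of them had a UMI. Xcr1, Cadm1, Fcer1a, Cd209a, Tnfsf4 and Ccl22 were at 0 in both libraries. The 12 plasmacytoid dendritic markers summed to 94.1 and 305 CPM in NK-like cells, and 7 and 9 of them had a UMI. Plasmacytoid dendritic-like cells themselves held 3 control UMIs and 1 explosion UMI of Gbp5. The 14 monocyte markers summed to 886 and 1067 CPM in NK-like cells, and 10 and 12 of them had a UMI. In endothelial-like cells they summed to 1919 and 2788 CPM, and 11 had a UMI in each library. The part of such RNA in the Gbp5 values was not tested. Monocyte-like cells had 10.9 CPM (7.16 to 15.8) in the control, level with macrophage-like cells at 10.8 CPM. In the explosion library monocyte-like cells reached 100 CPM (85.9 to 116), whereas macrophage-like cells reached 28.8 CPM (22.1 to 36.8). The monocyte ratio of 9.23 (6.13 to 14.4) was the highest that any of the 7 genes had in a compared class, and 1.20% of genes there had a higher one. The macrophage ratio was 2.67 (2.03 to 3.47), and T-like cells went from 30.7 to 65.8 CPM. Gbp2 and Gbp5 belong to a family of related genes, and the sources used here do not say how reads shared between its members were counted.

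Stat2 and Irf9, the partners in the complex that carries the type I interferon signal, were present at moderate levels in most classes and had smaller ratios. Irf9 was highest in monocyte-like cells of both libraries, with 36.6 CPM (29.5 to 45) and 80.0 CPM (67.2 to 94.5). It was lowest in secretory-like cells of both libraries, with 2.79 CPM (2.28 to 3.37) and 6.79 CPM, the latter from 1 UMI. Neighbours in its order could not be separated, since all 13 neighbouring pairs of the control and all 11 of the explosion library had overlapping intervals, several of them in classes with fewer than 10 UMIs. Irf9 met the rule in monocyte-like cells, with a ratio of 2.19 (1.67 to 2.88), and in ciliated-like cells, with 5.83 (2.67 to 11.4) from 65 and 10 UMIs. Stat2 was highest in B-like cells of the control, with 70.5 CPM (55.1 to 88.9), and in the explosion library B-like cells at 116 CPM and monocyte-like cells at 119 CPM could not be separated. Stat2 met the rule in monocyte-like cells, from 40.6 to 119 CPM with a ratio of 2.94 (2.31 to 3.77), and in macrophage-like cells, from 29.1 to 58.4 CPM with a ratio of 2.00 (1.66 to 2.40). The Stat2 ratio in ciliated-like cells rests on 3 explosion UMIs, with an interval of 0.179 to 2.63.

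Irf7, the amplifier of type I interferon production, met the rule in none of the 8 classes where it had at least 20 UMIs. Neutrophil-like cells had its highest control level, 167 CPM (130 to 212). Only 20 neutrophil-like cells were kept in the explosion library, so that class was not compared. Plasmacytoid dendritic-like cells had 129 CPM (81.6 to 193) in the control and 339 CPM (262 to 433) in the explosion library, where they led the order. Their 45 control cells were too few for the comparison across classes, and beside a ratio of 2.64 (1.62 to 4.45) 28.2% of all genes in those cells were at least 2-fold higher. Monocyte-like cells went from 84.9 to 138 CPM, a ratio of 1.63 (1.35 to 1.97) that 39.4% of the genes in that class exceeded. Macrophage-like cells had only 6.53 and 10.9 CPM.

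Irf8, the lineage factor of monocytes, dendritic cells and B cells, stood far higher in plasmacytoid dendritic-like cells than in any other class. They had 1892 CPM (1696 to 2105) in the control and 4088 CPM (3807 to 4385) in the explosion library. The next levels were 204 CPM in B-like and 196 CPM in NK-like cells of the control, and 346 CPM in NK-like and 289 CPM in B-like cells of the explosion library, and in each library the intervals of these classes overlapped. Monocyte-like cells went from 143 to 275 CPM, and their ratio of 1.92 (1.67 to 2.21) missed the rule. Macrophage-like cells went from 33.9 to 78.5 CPM with a ratio of 2.31 (1.97 to 2.71), which met it, beside plasmacytoid dendritic markers that went from 160 to 388 CPM in the same cells. At a finer clustering (Leiden resolution 2) a dendritic-like class of 173 control and 249 explosion cells appeared, with 243 CPM (207 to 283) and 730 CPM (619 to 855) of Irf8. Its Irf8 ratio was 3.00 (2.40 to 3.77), and 27.6% of genes were called higher there. In that class Irf1, at 5.18, and Gbp2, at 5.01, had higher ratios than Irf8.

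Irf8 also stood higher in classes whose control levels rested on 22 UMIs or fewer. These levels lay around the median of the control order, 10.4 CPM over 14 classes. T-like cells went from 8.45 to 51.7 CPM (22 and 33 UMIs), with a ratio of 6.12 (3.46 to 11), and 2.33% of T-like genes had a higher one. Endothelial-like cells went from 16 to 123 CPM (6 and 14 UMIs), with a ratio of 7.71 (2.78 to 24.5). Fibroblast-like cells went from 12.7 to 62.4 CPM (4 and 18 UMIs), with a ratio of 4.92 (1.62 to 20.0). Mesothelial-like cells had 8.36 and 10.6 CPM. Markers of other cells moved in some of these classes too. The 12 plasmacytoid dendritic markers summed to 211 CPM in control and 518 CPM in explosion T-like cells, and to 506 and 1003 CPM in endothelial-like cells. Klk1 and Cox6a2 were at 0 in both libraries there, as they were in the plasmacytoid dendritic-like cells themselves. Spib was also at 0 in control T-like cells. In endothelial-like cells Pacsin1 and Spib were at 0 in both libraries too, and Siglech, Bcl11a and Ccr9 in the control. The 14 monocyte markers summed to 2256 and 1949 CPM in T-like cells, to 1919 and 2788 CPM in endothelial-like cells, and to 489 and 1224 CPM in fibroblast-like cells. F13a1 was at 0 in both libraries of the last 2 classes, beside Fcnb and Cx3cr1 in control and Ccr2 and Ms4a6a in explosion endothelial-like cells, and beside Cx3cr1 in both and Fcnb and Ccr2 in control fibroblast-like cells. In mesothelial-like cells, whose Irf8 ratio was 1.26, the monocyte sum was 154 and 456 CPM, a ratio of 2.95 beside 2.5 in fibroblast-like cells. The plasmacytoid dendritic sum of mesothelial-like cells was 146 and 267 CPM, a ratio of 1.83. In ciliated-like cells the monocyte sum was 101 and 389 CPM. The part of such RNA in the Irf8 values was not tested.

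**Figure D2:**
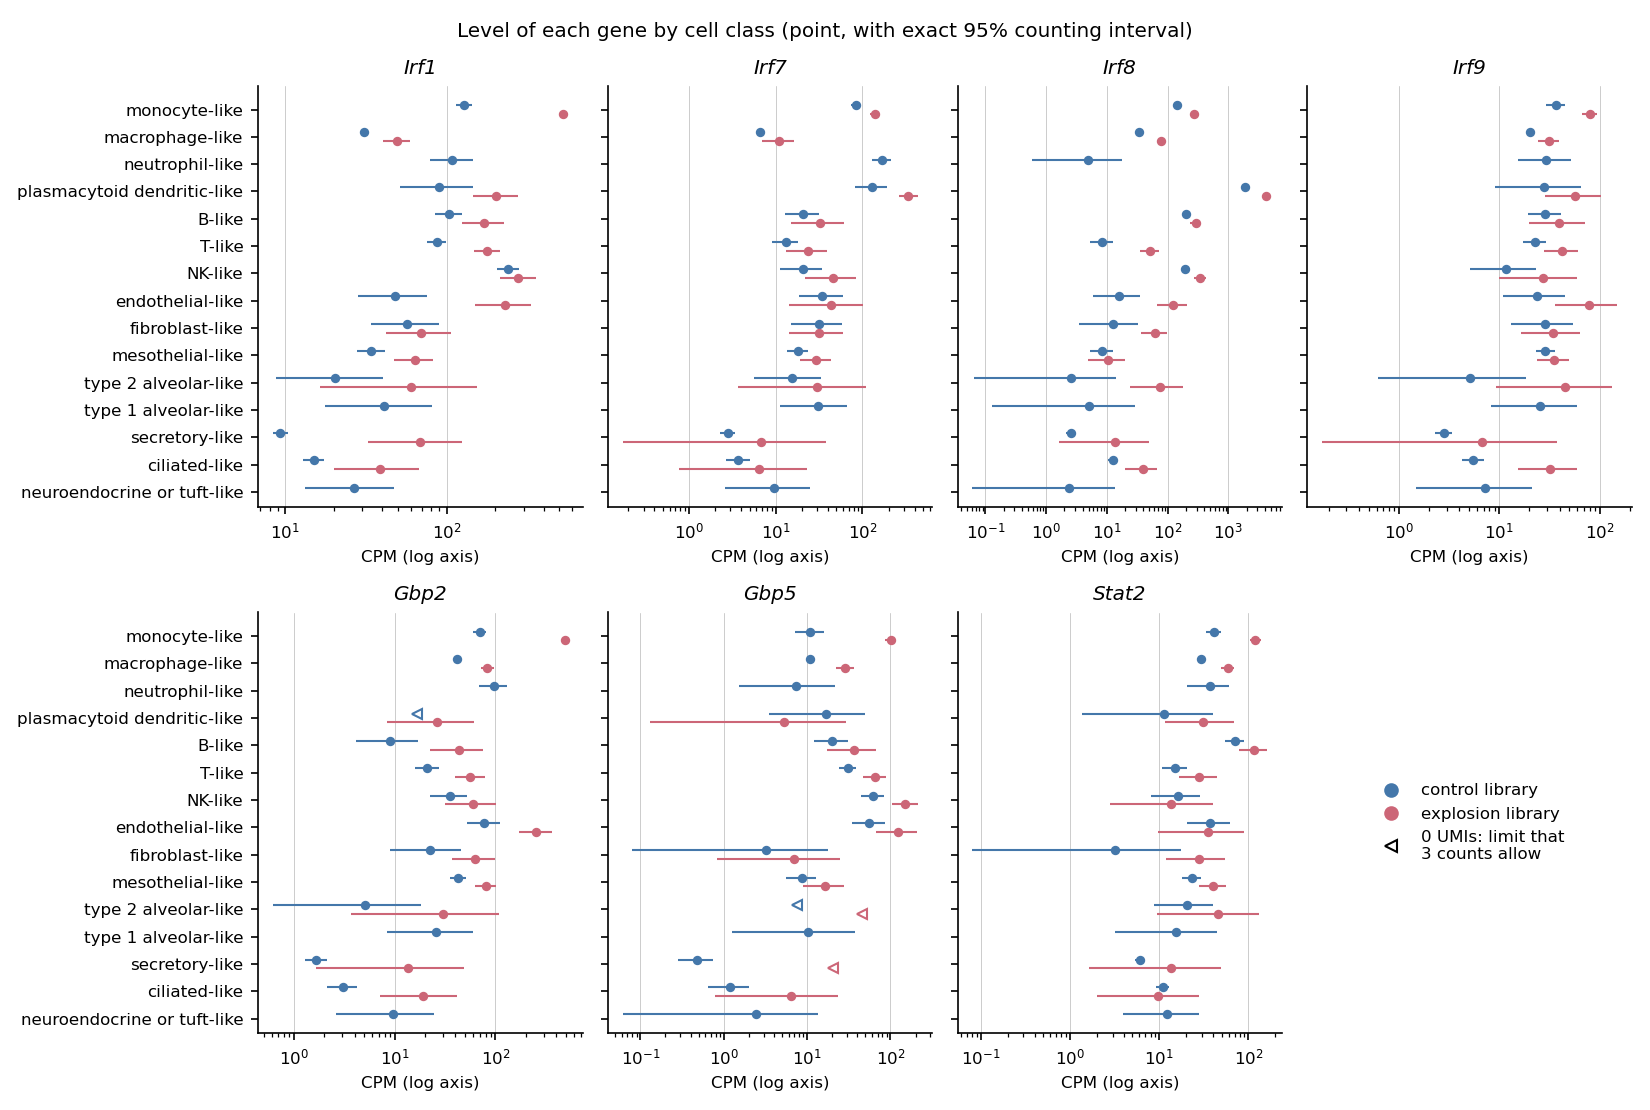
Level of each gene in every class with at least 50 cells in that library, and in the 45 plasmacytoid dendritic-like control cells, as CPM on log axes with exact 95% counting intervals; blue is control and red explosion. Irf8 peaks in plasmacytoid dendritic-like cells of both libraries, and monocyte-like cells hold the highest explosion levels of Irf1, Irf9, Gbp2 and Stat2.

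The monocyte-like class was made of different clusters in the libraries, so its ratios were followed into the clusters. Cluster 7, led by Fcnb, Vcan and Ccr2, genes of classical monocytes, was the only one of the 3 with many cells in both libraries, 305 control and 960 explosion. Cluster 11, led by Cd300c2, Defb14 and Mal and also high in Treml4, had 943 control and 6 explosion cells. Cluster 1, led by Pou2f2, Nos2 and Spn and also high in Treml4, had 37 control and 2872 explosion cells. Within cluster 7 alone, 6 of the 7 genes were called higher, where 29.1% of genes were. Gbp2 went from 17.5 CPM (18 UMIs) to 314 CPM (210 UMIs), a ratio of 17.9 (11 to 30.8) that only 0.554% of the genes exceeded. Irf1 went from 61.4 to 409 CPM, a ratio of 6.67 (5.05 to 8.91). These 2 ratios were higher in cluster 7 than in the class as a whole. Gbp5 went from 7.80 to 59.8 CPM, a ratio of 7.66 (3.54 to 19.0) from 8 and 40 UMIs. Gbp2 and Gbp5 are counted among the 6, but both reached the minimum of 20 UMIs only with those of the explosion library. Stat2 went from 35.1 to 135 CPM, Irf9 from 19.5 to 59.8 CPM and Irf7 from 23.4 to 82.2 CPM. Irf7, which missed the rule in the whole class, thus met it here with a ratio of 3.51 (2.14 to 5.93). Irf8 went from 190 to 377 CPM, and its ratio of 1.98 (1.64 to 2.40) missed the rule.

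Clusters 11 and 1 each belong to 1 library, so their levels are set side by side and library and cluster cannot be told apart. Gbp2 stood at 105 CPM in cluster 11 of the control and at 599 CPM in cluster 1 of the explosion library. Irf1 stood at 170 and 604 CPM. Both were higher in these cells than in cluster 7 of the same library. Gbp5 stood at 9.79 and 126 CPM, Irf7 at 129 and 173 CPM, Irf9 at 47.6 and 92.1 CPM and Stat2 at 43.4 and 110 CPM. Irf8 went the other way between the clusters: its 109 CPM in cluster 11 and 211 CPM in cluster 1 lay below cluster 7 of the same library. The Irf7 level of cluster 7 was below that of cluster 11 in the control and below that of cluster 1 in the explosion library.

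**Figure D3:**
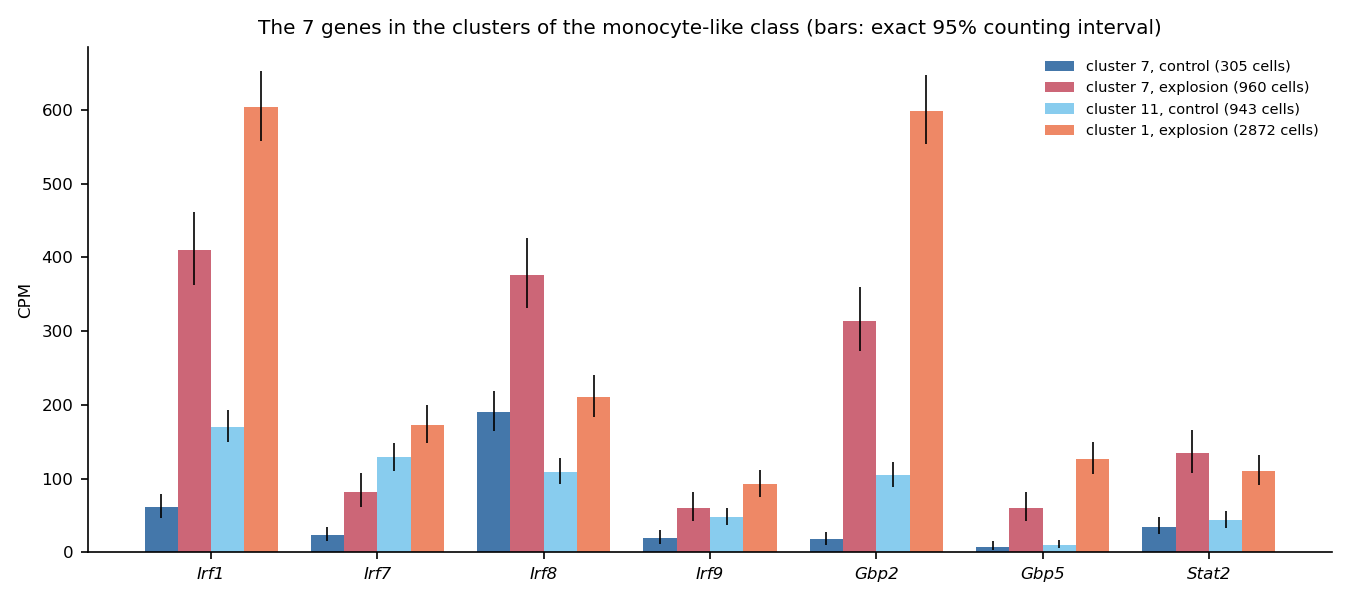
CPM of the 7 genes in the clusters of the monocyte-like class, with exact 95% counting intervals as error bars; cluster 7 is shown in both libraries, cluster 11 in the control and cluster 1 in the explosion library. Gbp2 in cluster 7 is 17.5 CPM in control and 314 CPM in explosion cells, and Irf8 is higher in cluster 7 than in the other cluster of the same library.

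Shares of cells with a UMI depend on depth, so each cell was thinned to 500 UMIs and shallower cells were left out. In cluster 7 this kept all 305 control cells (median 2920 UMIs) and 710 of the 960 explosion cells (median 649.5 UMIs, 250 left out). Irf1 had a UMI in 2.30% (0.928 to 4.67) of the thinned control and 16.5% (13.8 to 19.4) of the thinned explosion cells. Before thinning the shares were 18% and 20.7%. Gbp2 had a UMI in 0.984% (0.203 to 2.85) of the thinned control and 12.3% (9.93 to 14.9) of the thinned explosion cells, and in 5.57% and 17.0% before thinning. At equal depth the explosion cells thus stood above the control for both genes. In secretory-like cells, where Gbp2 had its lowest level in both libraries among the classes with a UMI of it, the thinned shares were 0.0341% of 2934 control cells (median 11547 UMIs) and 0.893% of 112 explosion cells (median 1212.5 UMIs before thinning). The control share of Gbp2 in cluster 7 rests on 3 cells.

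Macrophage-like cells were likewise held by different clusters in the libraries. The control cells were mainly in clusters 0 (5809 cells) and 2 (2175 cells), and the explosion cells in cluster 4 (1680 cells). The 18 macrophage markers summed to 5881 CPM in the control and 8155 CPM in the explosion library, with Marco at 0 in both, and the 14 monocyte markers to 198 and 601 CPM. The 12 plasmacytoid dendritic markers summed to 160 and 388 CPM there, a ratio of 2.43, with Klk1 at 0 in both libraries and Cox6a2 at 0 in the explosion library. The part of monocyte or plasmacytoid dendritic RNA in the macrophage values was not tested. Irf8, Gbp2, Gbp5 and Stat2 met the rule with ratios between 2.00 (Stat2) and 2.67 (Gbp5), where the median gene of the class had a log2 ratio of 0.66. Between 21.7% (Gbp5) and 36.1% (Stat2) of the genes tested in macrophage-like cells had a higher ratio than these 4. With TMM factors the 7 log2 ratios ran from -0.31 to 0.49, and Irf1, Irf7 and Irf9 turned below the control. The small cluster 24, led by C1qa, C1qb and C1qc, genes of interstitial macrophages, had 126 control and 172 explosion cells. In it Irf1 went from 75.9 to 226 CPM (ratio 2.98, 1.63 to 5.33) and Irf8 from 80.6 to 248 CPM (ratio 3.07, 1.73 to 5.37), where 21.6% of genes were called higher.

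The rest of the interferon pathway was read from 10 lists of 115 genes, of which 109 were in the files. In monocyte-like cells the interferon-inducible GTPases other than Gbp2 and Gbp5 were called higher in 8 of 8 measured members, where 25.2% of all genes were, with a median log2 ratio of 1.82 against 0.46 over all genes tested. One of the 8, Gbp6, had 0 control and 26 explosion UMIs, so it passed the minimum of 20 UMIs only through the library where it was high; the other 7 had between 24 and 140 control UMIs. Gbp4, a further guanylate-binding protein, went from 10.5 to 85.2 CPM (ratio 8.15, 5.34 to 12.9), and the immunity-related GTPase Igtp from 9.66 to 62.6 CPM (ratio 6.48, 4.14 to 10.6). Gbp6 was named after its values were seen. The lowest ratios among those with at least 30 UMIs were 3.18 for Irgm and 3.23 for Ifi47.

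Targets of the STAT2 and IRF9 complex were called higher in 18 of 25 and lower in 1 (25.2% of all monocyte-like genes were called higher and 9.31% lower), with a median log2 ratio of 1.45. Zbp1, a sensor of Z-form nucleic acid, had 2.41 and 33.0 CPM (6 and 57 UMIs). Ifi44 had 6.44 and 66.7 CPM (16 and 115 UMIs). Zbp1 and Ifi44 are counted among those called higher, but both reached the minimum of UMIs only with those of the explosion library. Isg20, an exonuclease, was the 1 called lower, at 17.7 and 4.64 CPM, and Ifi27 stood at 731 and 464 CPM. Targets of IRF1 were called higher in 8 of 13, against the same 25.2%, with a median of 1.33. The chemokine Cxcl10 went from 15.3 to 119 CPM (ratio 7.81, 5.51 to 11.4) and Nlrc5, the activator of class I antigen presentation genes, from 24.9 to 133 CPM (ratio 5.35, 4.02 to 7.2). The immunoproteasome subunits Psmb8 and Psmb10 did not share this, with ratios of 0.81 and 0.68.

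Upstream, the pattern in monocyte-like cells was uneven. No interferon ligand reached 20 UMIs, and Ifnb1 had 0 control and 4 explosion UMIs. None of the 5 measured receptors met the rule, and their ratios ran from 1.06 (Ifngr1) to 1.91 (Ifnar1). The kinase Tyk2 went from 31.4 to 93.9 CPM (ratio 2.99, 2.27 to 3.97), whereas Jak1 stood at 240 and 231 CPM. Sensors and adaptors were called higher in 7 of 15, against 25.2% of all genes, among them the double-stranded RNA sensor Ifih1 (ratio 4.67) and the adaptor Traf3 (3.74), whereas Mavs and Ticam1 had ratios of 0.86 and 0.82. Inhibitors had 1 of 6, Pias1 with 2.18, and the other interferon regulatory factors with their IRF2-binding proteins 1 of 8, the co-repressor Irf2bp2 with 4.37. Both shares were below that of all genes. Irf2, which competes with IRF1 for its sites, had a ratio of 1.69, and Irf4 1.04.

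Of 8 measured partners of IRF8 in monocyte-like cells, 1 was called higher and 1 lower, against 25.2% and 9.31% of all genes. Batf3, which pairs with IRF8 in dendritic cells, was called lower in monocyte-like cells, from 66.4 to 13.9 CPM (ratio 0.21, 0.131 to 0.323), and within cluster 7 alone its ratio was also 0.21. Batf2, picked out after its values were seen, was the 1 called higher, with 1 control and 20 explosion UMIs, and so reached the minimum only through the explosion library. Spi1, the myeloid master factor PU.1, stood at 400 and 427 CPM. In macrophage-like cells 2 of 8 partners were called higher, Ikzf1 (ratio 2.22) and Etv6 (2.10), against 32.1% of all genes. Batf3 was the 1 called lower there, against 6.09%, from 134 to 40.2 CPM (ratio 0.30, 0.241 to 0.371).

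In macrophage-like cells the GTPases and both target lists had smaller shares of members called higher than in monocyte-like cells, beside a higher background. Of all macrophage-like genes 32.1% were called higher and 6.09% lower. The other GTPases were called higher in 4 of 7, with a median log2 ratio of 1.06 against 0.71 over all genes. Targets of STAT2 and IRF9 were called higher in 9 and lower in 2 of 24, and targets of IRF1 higher in 5 and lower in 1 of 14. The shares of these target lists called higher lay near that of all genes. Ifi44 had the highest ratio among the STAT2 and IRF9 targets with at least 30 UMIs, 6.28 (4.85 to 8.06), and Ifi27, at 904 and 397 CPM, the lowest, 0.44. Psmb10 was called lower, from 170 to 59.8 CPM. The receptors again had 0 of 5, and sensors and adaptors 8 of 14. Whether macrophage-like and monocyte-like cells differed in these ratios was not tested.

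**Figure D4:**
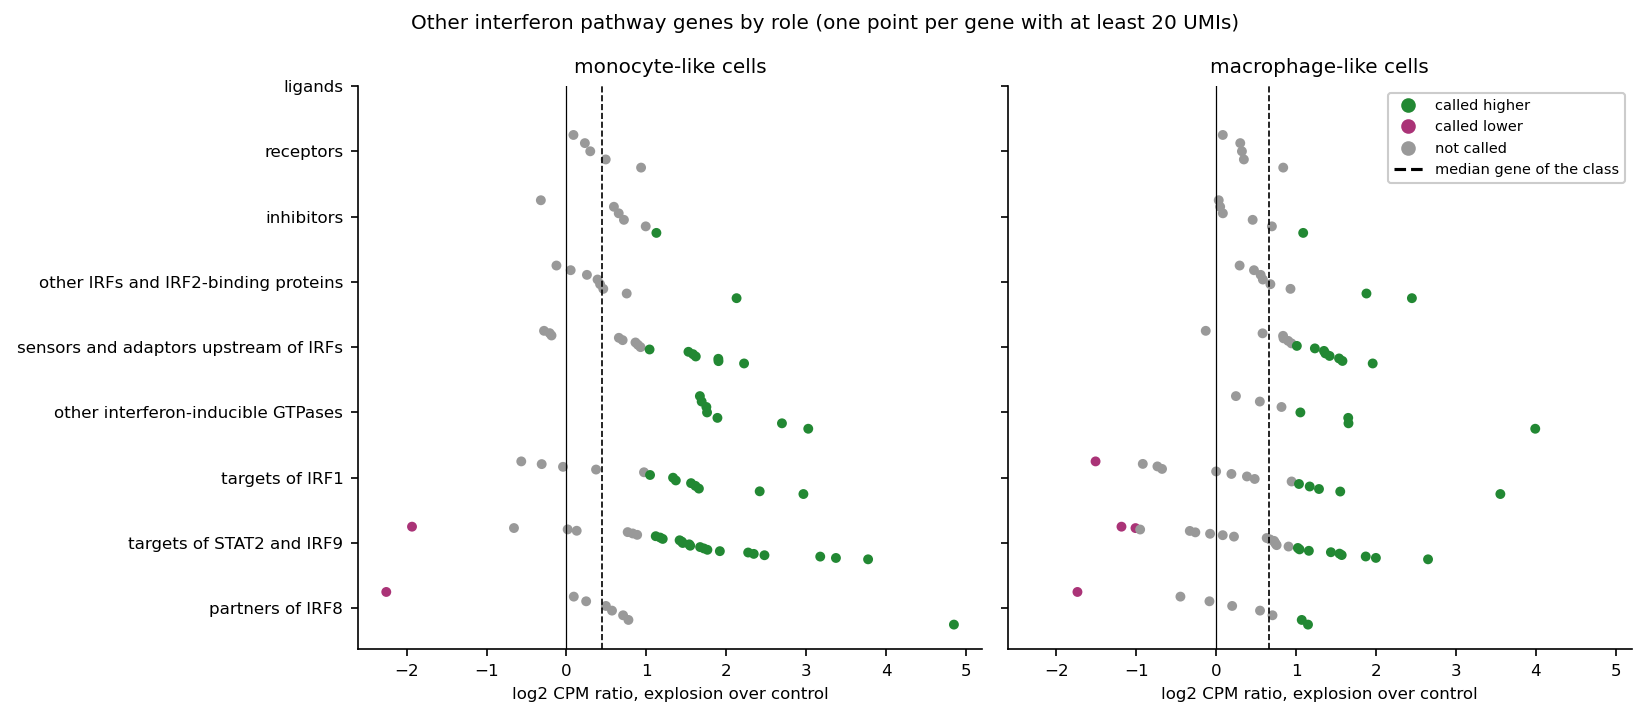
Log2 CPM ratio, explosion over control, of the other interferon pathway genes with at least 20 UMIs by role, in monocyte-like (left) and macrophage-like cells (right); dashed lines give the median gene of the class and colours the calls. All GTPases drawn lie right of the dashed line in monocyte-like cells (Gbp6, with 0 control UMIs, has no ratio to draw), 4 of 7 are called in macrophage-like cells, and no receptor is called in either.

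In mesothelial-like cells, where no member met the rule, the lists did not behave alike. Targets of STAT2 and IRF9 were called higher in 13 of 19 and lower in 2 (27.5% of all mesothelial-like genes were called higher and 11.3% lower), with a median log2 ratio of 1.16 against 0.46 over all genes. Targets of IRF1 were called higher in 1 of 10 and lower in 1, with a median of 0.29. Among the members Irf8 and Irf9 had ratios of 1.26 and 1.22 there, and the other 5 between 1.62 (Irf7) and 1.89 (Gbp2).

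The cells that supplied each gene's UMIs changed between the libraries along with the makeup of the libraries. Of control cells 6.66% were monocyte-like and 45.8% macrophage-like, and of explosion cells 32.5% and 16.7%. Gbp2 UMIs came to 77.0% from macrophage-like cells in the control and to 65.7% from monocyte-like cells in the explosion library. Irf1 UMIs came to 49.9% from macrophage-like cells in the control and to 60.8% from monocyte-like cells in the explosion library. Irf8 UMIs came to 56.2% from macrophage-like cells in the control, and to 44.6% from plasmacytoid dendritic-like cells in the explosion library, although the latter were only 1.85% of its cells. Over whole libraries the ratios ran from 2.85 (Stat2) to 7.58 (Irf8) and all 7 were called higher, where 49.8% of all genes were. Those whole-library ratios combine levels within classes with the makeup of each library, and the 2 cannot be told apart in them.

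**Figure D5:**
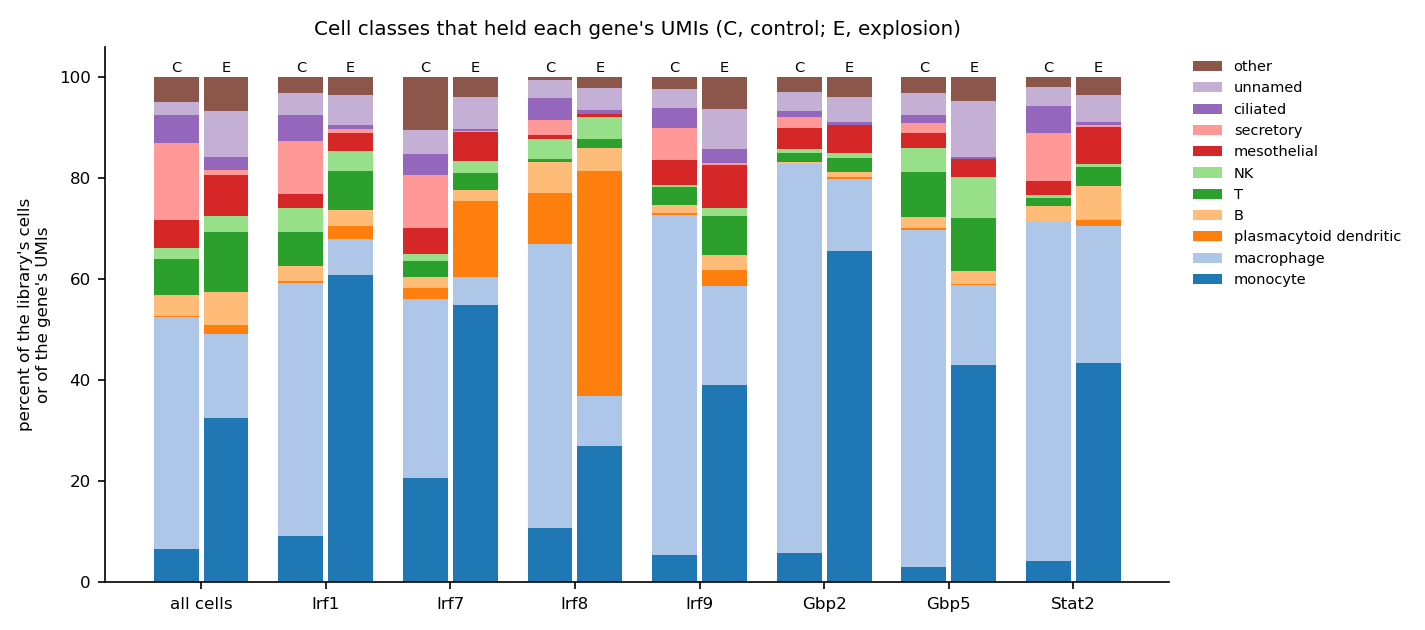
Share of each gene's UMIs held by each cell class, in percent, beside the share of all cells (first pair of bars), for the control (C) and explosion (E) library. Macrophage-like cells supply 77.0% of control Gbp2 UMIs and monocyte-like cells 65.7% of explosion Gbp2 UMIs.

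Among unnamed clusters, a cycling one (cluster 18, led by Mki67 and Top2a, 246 and 234 cells) had Irf1 at 46.5 and 179 CPM and Gbp5 at 11.7 and 86.1 CPM, with ratios of 3.85 (2.69 to 5.46) and 7.33 (4.02 to 13.4). Irf8 and Gbp2 met the rule there too, which makes 4 of 7, against 24.2% of all genes. Stat2 did not follow them, with a ratio of 0.77 (0.321 to 1.60).

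The genes whose control levels across 14 classes lay closest to each member were found by Pearson correlation of log2(CPM + 10) among 6701 candidates. The points share libraries and depth, so r is a description with no test. Gbp2 lay closest to Rab8b (r = 0.92), a vesicle transport GTPase, to Ifi47 (0.92), itself an interferon-inducible GTPase, and to Synj1 (0.91). Over 12 explosion classes r was 0.72, 0.51 and 0.88. Gbp5 lay closest to Klf2 (0.92), Gimap6 (0.89) and Gimap5 (0.89), the latter 2 being GTPases of lymphocytes. Irf8 lay closest to Lat2 (0.90), an adaptor of B and myeloid cells, RGD1305464 (0.87) and St8sia4 (0.85). Irf1 lay closest to Lysmd3, Nsd3 and Marchf7, Irf7 to Cdkn2d, Fbxl5 and Plekho2, and Irf9 to Asap1, Zfp106 and Pdlim7. Stat2 lay closest to Tfeb (0.90), Rpe (0.89) and RT1-DMb (0.88), the last a peptide-loading chain of class II antigen presentation. In the order given, r over the explosion classes was 0.55, 0.52 and 0.88 for Stat2. For Gbp5 it was 0.79, 0.40 and 0.68, and for Irf8 0.80, 0.21 and 0.81. For Irf1 it was 0.43, 0.80 and 0.56, for Irf7 0.69, 0.33 and 0.55, and for Irf9 0.39, 0.33 and 0.54.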

How the data were processed

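UMI counts were measured in 2 libraries of rat lung cells, 1 per group. The authors deposited raw whole-number UMI counts for each gene and barcode, which cellranger 7.1.0 wrote, per the file headers. The submitters' processing notes list Cell Ranger 6.1.1, bcl2fastq 2.20 and 2 builds, rn6 and mRatBN7.2, with no role stated, and the annotation used for counting was not found in the sources used here. The matrices hold called cells only. The members, lists and marker genes were chosen with earlier results of these data known.

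Cells needed 200 genes or more and no more than 25% mitochondrial UMIs. Scrublet (scanpy 1.11.5) called doublets in each library, and these were removed (8.47% of control and 5.07% of explosion cells). Both libraries were clustered together without integration, on 2000 variable genes per library, 30 principal components and 15 neighbours, with Leiden at resolution 1 (python-igraph 0.11.9). Irf1, Irf7, Irf8 and Gbp2 were among the variable genes. A cluster was named when 3 or more of a class's markers were 2-fold or more above the median of other clusters and in 5% or more of its cells, with rules for clusters led by other markers, by cycling genes or of low depth, and this naming was settled with the clusters in view. Cluster 15, led by Kcnj15 (39 control and 592 explosion cells), stayed unnamed.

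CPM divides the UMIs of a gene by those of every gene in that class and library. Ratios have exact conditional intervals of 2 Poisson counts, CPM exact Poisson and shares exact Clopper-Pearson intervals (scipy 1.17.1), at the 95% level. A call needed a ratio of at least 2 either way, an interval excluding 1 and at least 20 UMIs, and counts by class or list are given with the share of all genes called in that class. The calling step was tested on simulated Poisson counts, drawn for both libraries from the control profile with set fold changes. Such counts hold counting error only, so that test does not bear on differences between samples or on the shift of most genes. Median UMIs per cell were 1564 control and 373 explosion in monocyte-like, 5804.5 and 1118 in macrophage-like and 1825.5 and 418 in T-like cells. Outside the 7 genes, those named were, per list, the 2 highest and 2 lowest ratios with at least 30 UMIs in macrophage-like and monocyte-like cells, and per member the 3 most alike genes. A pathway gene, with the count of its list, is left out of the text. Alternatives were other scalings (TMM from edgeR 4.0.16), filters, depths and groupings of cells.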

Additional observations from a re-analysis of the deposited data

How the results depend on the processing

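The count of 26 pairs of a gene and a class called higher became 11 relative to the median gene of the class, 12 with TMM factors, 44 with called doublets kept, and 12 of 30 measured pairs with each cell thinned to 500 UMIs. It lay between 19 and 35 under the other alternatives, and the count called lower was 0 under all of them. The pairs still called were 11 of the 26 relative to the median gene, 12 with TMM factors, 26 with doublets kept, and 10 of the 14 still measured when thinned. In monocyte-like cells 4 genes or more were called under every alternative run. The cause of these shifts was not tested, apart from the fewer pairs measured when thinned. With the monocyte-like class taken as cluster 7 alone, the macrophage-like class without cluster 24, or cluster 15 counted as secretory-like, alternatives chosen after seeing the data, the counts were 27, 25 and 32. No paired analysis was possible because each group has 1 library and the 2 share 1 replicate number only. Depth limits the small classes most: no member reached 20 UMIs in type 2 alveolar-like cells, and explosion values of ciliated-like and secretory-like cells rest on 12 UMIs or fewer per gene.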

Other observations

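In cluster 28, unnamed, with 105 control and 62 explosion cells, Gbp2 stood at 36.7 and 150 CPM (ratio 4.09, 1.69 to 8.96) and Irf7 at 23.1 and 83.3 CPM (ratio 3.61, 1.04 to 10.2), and these 2 of 4 measured genes were called higher there, against 15.5% of all genes. In cluster 25, led by Il1rl1 and Gata3, genes of type 2 innate lymphoid cells, 101 control cells held no UMI of Irf7 or Irf9 and 189 explosion cells held 2 and 6. Cluster 15, led by Kcnj15 and Epas1 and made mostly of 592 explosion cells, had Irf8 at 33.1 CPM (22.0 to 47.9) and Gbp2 at 26.0 CPM (16.3 to 39.4).

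Ifng, the ligand upstream of IRF1, was not higher in the explosion library where it was measured. T-like cells held 36 control and 6 explosion UMIs (ratio 0.68, 0.234 to 1.63), and NK-like cells 31 and 7 UMIs (ratio 0.70, 0.260 to 1.62). Both intervals include 1, so a difference was not detectable at this depth.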
